A study of Mus musculus with 6 samples.

Results

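The Notch receptors, their nuclear partner RBPJ and a set of Notch targets were followed in regulatory T cells (Treg) sorted from the thymus of NOD and B6 mice. The 10 genes are Notch1, Notch2, Notch3, Rbpj, Maml1, Maml2, Lfng, Dtx1, Hes1 and Nrarp, taken by symbol from a table of 32801 genes, and all 10 had a row. They were selected on their normalized counts in the 3 NOD and 3 B6 libraries, so their strain differences are descriptions without a test. NOD mice become diabetic through spontaneous autoimmunity, and B6 (C57BL/6) is the strain behind the mouse reference genome. Each strain gave 3 RNA-seq libraries from total RNA of mice aged 3 weeks. The sort gate, the same in both strains, was GFP- CD4+CD8- Thy1.1+. The labels do not say what GFP or Thy1.1 report, and they name no allele or treatment. Nothing says whether replicates came from separate animals, so p-values measure the spread between these libraries, which may be technical.

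Notch receptors are cleaved when a ligand of the Delta or Jagged family on a neighbouring cell binds them. The freed intracellular domain moves to the nucleus, joins the DNA-binding protein RBPJ and a Mastermind-like co-activator, and switches on genes that RBPJ otherwise helps to keep silent. In the thymus, Notch1 commits incoming progenitors to the T lineage, and the pathway is largely switched off as cells mature.

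Values are normalized counts, meaning reads per gene that the authors scaled by a library's size factor and then rounded. They summed to between 16097369 and 17625903 per library, and the estimated depth was 15500000 to 21600000 reads. Foxp3, which defines Treg, stood between 1701 and 2446 normalized counts in every library. The Treg and CD4+ T cell markers summed to 105248 to 116383 in NOD and 99826 to 112263 in B6, mostly Ctla4. Cd3e (means 1916 and 1115), Cd4 and Ctla4 were higher in all NOD libraries. The other markers of that list overlapped, with a lower NOD mean for Ikzf2 (25812 against 32437). Of 6 lists of cell type markers, the summed B cell list was higher in NOD (5145 to 5616 against 3609 to 4101), and Ighm made up most of it. The dendritic cell list (1104 to 1391 in NOD, 1643 to 1742 in B6, mostly Zbtb46) and the macrophage list (23 to 51 and 58 to 84) were lower. The stroma, epithelium and vessel list ran from 2630 to 2880 in NOD and from 2103 to 2511 in B6, nearly all of it Pecam1, while Kdr was at 0 in every library. Immature thymocyte markers summed to 1612 to 1971 in NOD and 1364 to 1575 in B6, mostly Cd1d1, with Rag2 at 0 to 9 and Ptcra at 0 or 1. Of that list, Rag1, Dntt and Arpp21 were lower in all NOD libraries and Cd8a was higher in all of them. The other genes of that list overlapped. The part of these cells in the results was not tested, except where a marker is named beside a gene. In bulk RNA, fewer cells of a type and less RNA per cell cannot be told apart.

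The receptors Notch1 and Notch2 were expressed at similar levels in both strains. Notch1, on chromosome 2 (26457903 to 26516663, mm10, as for all positions here), stood at 1937, 3141 and 2114 normalized counts in NOD libraries 2, 10 and 18, and at 2295, 2405 and 1586 in B6 libraries 4, 12 and 20. The strains overlapped, with the highest value in NOD library 10 and the lowest in B6 library 20. The log2 difference of NOD minus B6 was 0.18 ± 0.20 (limma SE, n = 3 each), and it was -0.03 without NOD library 10 and -0.004 without B6 library 20. Notch2, the receptor that marginal zone B cells depend on (chromosome 3, 98013527 to 98150361), stood at 4128, 5038 and 4241 in NOD and 4380, 4686 and 4657 in B6. These values overlapped as well, and the log2 difference was -0.04 ± 0.11.

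Notch3, the receptor of pre-TCR-stage thymocytes and of vascular smooth muscle, was low in both strains and close to absent in NOD. It lies on chromosome 17 (32120820 to 32166852) and stood at 2, 2 and 8 normalized counts in NOD against 26, 32 and 10 in B6. The strains did not overlap, although NOD library 18 at 8 came close to B6 library 20 at 10. The log2 difference was -2.31 ± 0.62 (SE), and -1.59 with a pseudocount of 5 in place of 1. Genes were tested when 3 or more libraries reached 10 normalized counts, and Notch3 passed this filter only through the B6 libraries, which by itself requires a difference. Markers of vascular smooth muscle and pericytes were near 0 in both strains, with Pdgfrb at 0 to 8 and Rgs5 at 1 to 4. Markers of immature thymocytes moved both ways, since Rag1 was at 49 to 67 in NOD and 100 to 155 in B6, and Cd8a at 35 to 124 and 10 to 18. An antisense transcript, Gm17276, overlaps Notch3 exons, and it stood at 19 in B6 library 12 and at 0 to 2 in the others.

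**Figure D1:**
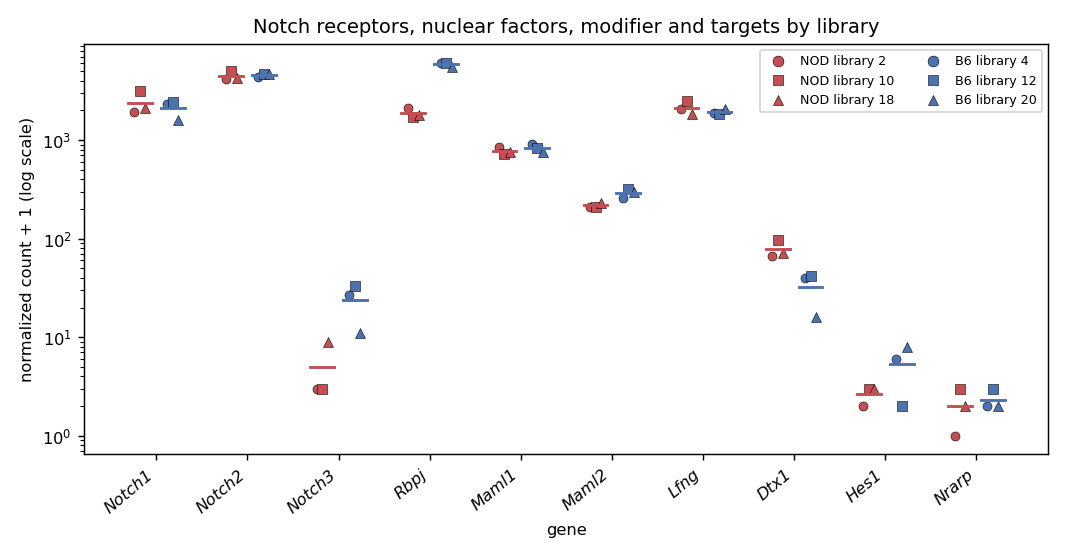
Normalized count + 1 (log axis) of each of the 10 genes in each library, NOD in red and B6 in blue, with a bar at the strain mean. Marker shapes only tell libraries apart. Rbpj and Notch3 lie lower in all NOD libraries, Dtx1 lies higher, and Hes1 and Nrarp stay between 0 and 7 normalized counts.

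Rbpj, the DNA-binding hub of the pathway, stood far lower in NOD. The gene (chromosome 5, 53466152 to 53657362) stood at 2111, 1704 and 1808 normalized counts in the NOD libraries and at 6088, 6077 and 5532 in the B6 libraries. No NOD library came near a B6 library, and each strain was tight around its mean. The means were 1874 ± 211 and 5899 ± 318 (SD, n = 3 each), so B6 was 3.15-fold higher, and the log2 difference was -1.66 ± 0.11 (limma SE). The authors' deposited table gives a log2 fold change of -1.65 for Rbpj.

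The mouse genome also carries processed pseudogenes of Rbpj, retrotransposed copies without introns whose reads can be taken for those of the parent gene. Rbpj-ps3, a single exon of 1441 bases on chromosome 6 (46529354 to 46530794, minus strand), lies inside an intron of Cntnap2 and moved in the opposite direction to Rbpj. It stood at 386, 363 and 386 normalized counts in NOD and 12, 37 and 22 in B6, without overlap, a log2 difference of 4.08 ± 0.33 (limma SE). The copy differs from the closest Rbpj transcript at 4 of 1441 bases, an identity of 99.7%. The stretch of 120 coding bases with the most differences, in exon 9 of 11 of that transcript, holds 2 of them, and it is shown because these bases are all that a read from there offers to tell the rows apart. Both are printed 5′ to 3′ from GENCODE M21 (GRCm38), with the differing bases in capitals, Rbpj from chr5:53652607-53652726 (plus strand) and Rbpj-ps3 from chr6:46529807-46529926 (minus strand).
Rbpj: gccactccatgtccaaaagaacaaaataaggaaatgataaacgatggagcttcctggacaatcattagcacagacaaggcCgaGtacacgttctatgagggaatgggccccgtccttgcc
Rbpj-ps3: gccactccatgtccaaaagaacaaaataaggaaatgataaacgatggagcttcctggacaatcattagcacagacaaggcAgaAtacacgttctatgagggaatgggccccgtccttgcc

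Of the 100-base windows of Rbpj-ps3, 77.4% occurred unchanged in an Rbpj transcript, and of its 50-base windows 89.0%. Neither read length nor the handling of reads with several matches is given in the sources used here, so the split between both rows is uncertain. Rbpj was 4025 normalized counts lower in NOD on average, and Rbpj-ps3 was 355 higher, which is 8.81% of that gap. With both pseudogene rows added to Rbpj, the totals were 2498, 2067 and 2194 in NOD and 6100, 6114 and 5554 in B6. The strains stayed apart, B6 was 2.63-fold higher, and the log2 difference was -1.40. The pseudogene held 15.5% to 17.6% of these totals in NOD and 0.197% to 0.605% in B6. The B6 genome served as the reference for both strains, and how many NOD reads of Rbpj it failed to place was not tested.

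**Figure D2:**
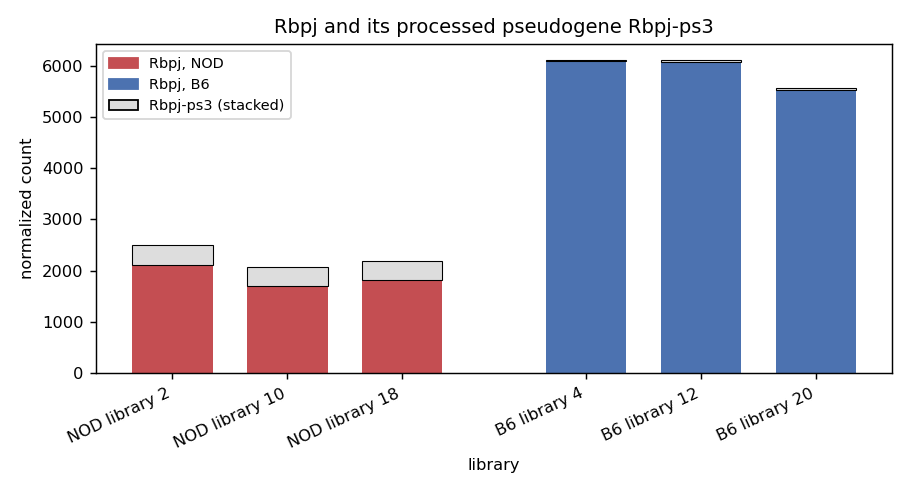
Normalized counts of Rbpj (red in NOD, blue in B6) with those of the pseudogene Rbpj-ps3 stacked on top in grey, for each library. The stacked totals reach 2067 to 2498 in NOD and 5554 to 6114 in B6, and the grey part is visible mainly in NOD.

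The Mastermind-like co-activators, which bridge the receptor's intracellular domain and RBPJ to histone acetyltransferases, differed less. Maml1 (chromosome 11, 50255634 to 50292311) stood at 849, 713 and 760 normalized counts in NOD and 913, 838 and 763 in B6. Its strains overlapped and the log2 difference was -0.11 ± 0.12 (limma SE). The antisense gene Gm26542, at 143 to 198 normalized counts, overlaps Maml1 exons, and the strand setting of the counting is not given. Maml2 (chromosome 9, 13297957 to 13709388) stood at 208, 208 and 231 in NOD and at 259, 321 and 293 in B6. All NOD libraries were lower than all B6 libraries, and the log2 difference was -0.43 ± 0.15.

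Lfng encodes Lunatic fringe, the glycosyltransferase that extends the O-fucose on Notch and shifts the receptor's preference from Jagged toward Delta ligands. It had the highest value of the 10 genes per kb of merged exon in either strain, a ranking that depends on the length used. On chromosome 5 (140607320 to 140615545), it stood at 2057, 2475 and 1834 normalized counts in NOD and at 1888, 1842 and 2085 in B6. Its strains overlapped, with the highest and the lowest value both in NOD, and the log2 difference was 0.12 ± 0.12 (limma SE).

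Of the target genes, Dtx1 was the only one of 3 with more than a trace of reads. Dtx1 encodes Deltex1, an E3 ubiquitin ligase that is itself a Notch target and acts back on the receptor (chromosome 5, 120680202 to 120711927). It stood at 66, 95 and 70 normalized counts in NOD and at 39, 41 and 15 in B6. Every NOD library was above every B6 library, and NOD was 2.43-fold higher by the means (77 ± 15.7 against 31.7 ± 14.5, SD, n = 3 each). The log2 difference was 1.36 ± 0.38 (limma SE), and 0.91 without B6 library 20, the lowest of the 6. The summed B cell markers were also higher in NOD. Of their defining members, Pax5 stood at 0 to 3 over all libraries.

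Hes1, the transcriptional repressor that is the best-known direct target of Notch, was almost undetected (chromosome 16, 30064384 to 30067796). It stood at 1, 2 and 2 normalized counts in NOD and at 5, 1 and 7 in B6, which sums to 5 and 13. Nrarp, a small ankyrin-repeat protein that binds the RBPJ complex and limits its activity (chromosome 2, 25180758 to 25183339), stood at 0, 2 and 1 in NOD and 1, 2 and 1 in B6. Neither passed the filter, their strains overlapped, and no fold is given at these levels. Per kb of merged exon, every library held at least 111 normalized counts each of Notch1, Notch2 and Rbpj, beside at most 3.44 of Hes1 and 0.775 of Nrarp.

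Levels of different genes are comparable only per length, here as normalized counts per kb of merged GENCODE M21 exons. Merged exons can exceed a single transcript. Those of Rbpj cover 12750 bases, while its transcript closest to Rbpj-ps3 has 5459. The place of Rbpj relative to the other genes, Lfng among them, depends on this choice of length. In NOD the order was Lfng (847 ± 130, SD, n = 3), Notch2 (414 ± 46.0), Notch1 (168 ± 45.7), Rbpj (147 ± 16.6), Maml1 (140 ± 12.5), Maml2 (32.7 ± 2.01) and Dtx1 (14.6 ± 2.98). Hes1 (0.818 ± 0.283), Notch3 (0.494 ± 0.428) and Nrarp (0.387 ± 0.387) came last. The neighbours Notch1, Rbpj and Maml1 overlapped in range, as did Hes1, Notch3 and Nrarp. The B6 order differed in the place of Rbpj, which came directly after Lfng (774 ± 51.5) at 463 ± 24.9 and overlapped in range with Notch2 (424 ± 15.7). Then came Maml1 (152 ± 13.6) and Notch1 (147 ± 31.2), which overlapped, and Maml2 (44.1 ± 4.71). Dtx1 (6.01 ± 2.75), Notch3 (2.80 ± 1.41), Hes1 (2.13, from 0.491 to 3.44) and Nrarp (0.516 ± 0.224) closed the list with ranges that overlapped from each gene to the next.

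**Figure D3:**
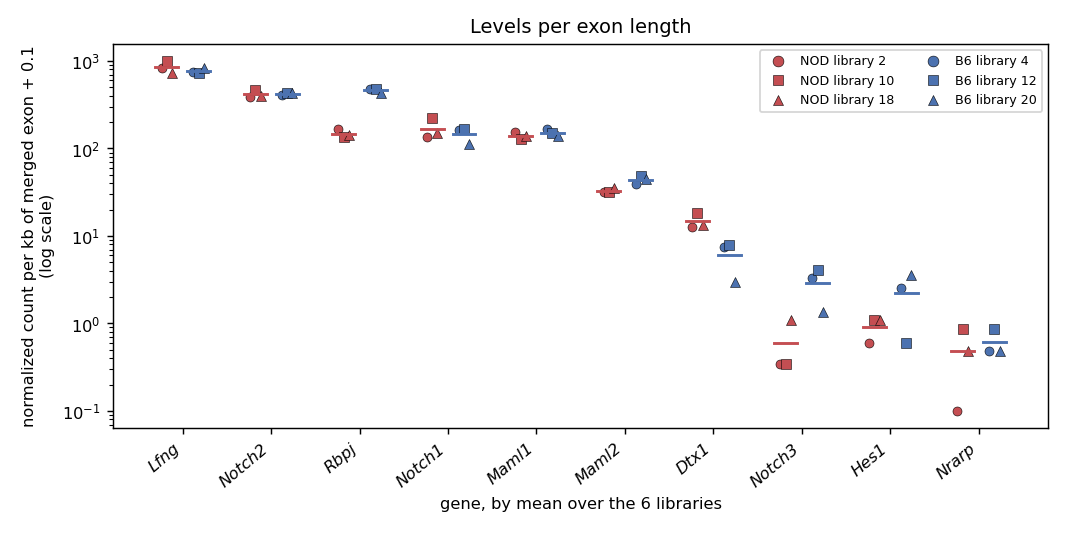
Normalized count per kb of merged exon + 0.1 (log axis) for the 10 genes in order of their mean over the 6 libraries, NOD in red, B6 in blue, bars at strain means. Marker shapes only tell libraries apart. Rbpj sits beside Notch2 in B6 (463 and 424) and beside Notch1 and Maml1 in NOD (147, 168 and 140).

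Across the 10 genes, all NOD libraries lay under all B6 libraries for 3 (Notch3, Rbpj and Maml2) and above them for 1 (Dtx1), and the other 6 overlapped. Of all 16442 genes tested, the strains were apart for 24.1%, with NOD under B6 for 11.9% and above for 12.1%. The fit across all genes called 3 of the 8 members that passed the filter (Rbpj, Notch3 and Dtx1) at an adjusted p under 0.05, beside 9.89% of all genes. Nothing is read from these counts, since the contrast chose the members and Notch3 passed the filter only through B6. Rbpj kept its call under each alternative setting, which adds no evidence, since every setting uses the libraries that chose the members. Both Notch3 and Dtx1 lost theirs with no filter on low values and in limma without a trend. They also lost it without NOD library 2, NOD library 10 or B6 library 4. Dtx1 further lost it under both rescalings and without NOD library 18 or B6 library 20, and Notch3 without B6 library 12. The authors' deposited table gives log2 fold changes of -2.42 for Notch3, 1.26 for Dtx1, -0.43 for Maml2 and 0.19 for Notch1.

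The libraries of a strain also varied among themselves. NOD library 10 held the highest NOD value of Notch1, Notch2, Lfng and Dtx1 and the lowest of Rbpj and Maml1. The 2 tested genes whose log2 values, centred per gene, ran closest to those of Notch1 over the 6 libraries were Plxna1, a semaphorin co-receptor, and Unc45a, a myosin chaperone. Their root mean square differences were 0.05 and 0.07 on the log2 scale. Plxna1 stood at 274, 443 and 292 normalized counts in NOD and 353, 352 and 225 in B6, also with its peak in NOD library 10. For Notch3 the closest were Rnaset2a (0.36) and Gm38344 (0.38), both at 35 normalized counts or fewer in every library. Hes1 and Nrarp were too low for such a comparison.

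The rest of the pathway was read from 7 lists of textbook components, 85 genes in all, of which 76 could be tested. With limma, 6 rose and 7 fell in NOD (17.1% called, beside 9.89% of all genes, 4.59% higher and 5.3% lower), and 63 were not called. The median log2 difference over the 76 was -0.03, against 0.01 over all genes. Of all 16442 genes tested, 3340 had an unadjusted p under 0.05. The number that fell was 3 without NOD library 18, 2 without B6 library 4, 3 without B6 library 12 and 4 without B6 library 20.

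Ligands and the remaining receptor were low, and 1 of 4 tested fell. Dll1, a Delta ligand, stood at 27, 16 and 11 normalized counts in NOD and 43, 41 and 86 in B6 (log2 difference -1.60 ± 0.42, limma adjusted p = 0.031). The strains did not overlap, but leaving out any 1 library except NOD library 2 ended the call (adjusted p of 0.0545 to 0.129). The summed dendritic cell and macrophage lists were lower in NOD as well, but their genes did not move as one. Adgre1 (0 to 2 in NOD, 9 to 22 in B6) and H2-Aa (31 to 66 and 72 to 176) were lower, Csf1r (15 to 19 and 14 to 25) and Xcr1 (56 to 99 and 84 to 94) overlapped, and H2-Eb1 (195 to 345 and 121 to 199) had the higher mean in NOD. Their part in the Dll1 value was not tested. Jag1, a Jagged ligand, stood at 190 ± 1 and 187 ± 12.7 (SD, n = 3 each), and Notch4 at 20.7 ± 7.51 and 31 ± 8.54, neither called. Dll4, the ligand by which thymic epithelium instructs progenitors, was at 0 in the NOD libraries and at 0, 1 and 6 in B6, and it did not pass the filter, nor did Dll3 and Dlk1.

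Among 12 tested genes of receptor glycosylation and ligand ubiquitination, 1 rose and 0 fell with limma, also at an unadjusted p under 0.05. Gxylt1, which adds xylose to the O-glucose of Notch EGF repeats, rose from 986 ± 150 to 1878 ± 210 normalized counts (SD, n = 3 each; log2 difference 0.93 ± 0.14, limma adjusted p = 0.00093). The ubiquitin ligase gene Neurl3 was abundant, at 8150 ± 1447 in NOD and 7500 ± 795 in B6, and was not called. Mib1, the ligase that ligands need in the signalling cell, stood at 2024 ± 126 and 2117 ± 138 and was not called either.

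Of 10 receptor cleavage genes, 1 rose and 1 fell. Adam17, a metalloprotease able to cut the Notch ectodomain, stood at 3549, 3354 and 2987 normalized counts in NOD and 2126, 2052 and 2330 in B6 (log2 difference 0.60 ± 0.11, limma adjusted p = 0.0035). Adam10, the protease of ligand-dependent cleavage, was not called (-0.10 ± 0.16). Psen2, a catalytic subunit of gamma-secretase, fell from 1935 ± 97.0 to 1443 ± 189 (-0.43 ± 0.12, adjusted p = 0.042), and that call ended when any 1 library except NOD library 10 was dropped (adjusted p of 0.0585 to 0.190). Furin, whose protease prepares the receptor for the surface, was not called (-0.24 ± 0.17).

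Of 10 genes of receptor trafficking and degradation, 1 rose and 1 fell. Numbl, a relative of the Notch antagonist Numb, stood at 15, 4 and 18 normalized counts in NOD and at 59, 64 and 56 in B6 (log2 difference -2.40 ± 0.48, limma adjusted p = 0.0074). Numb itself was not called (379 ± 16.0 and 416 ± 9.07, SD, n = 3 each). Dtx4, a Deltex ligase like Dtx1, stood at 258, 570 and 321 in NOD and 144, 178 and 157 in B6 (1.18 ± 0.25, adjusted p = 0.012). Its peak was again in NOD library 10, and without B6 library 4 the call was lost (adjusted p = 0.0616). Dtx3l (0.02 ± 0.12), the ubiquitin ligase gene Itch (0.09 ± 0.11) and the endocytic kinase gene Aak1 (0.22 ± 0.12) were not called.

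Among RBPJ's nuclear partners, 0 of 8 co-activator genes were called by limma (0 also at an unadjusted p under 0.05), and 2 of 16 co-repressor genes fell. The acetyltransferase genes Ep300 (log2 difference -0.03 ± 0.11, limma SE) and Crebbp (-0.16 ± 0.11) and the adaptor gene Snw1 (0.10 ± 0.13) were not called, nor was Maml3 (-0.02 ± 0.28). Tle1, a Groucho co-repressor that works with HES proteins, fell from 283 ± 13.3 to 177 ± 18.8 normalized counts (SD, n = 3 each; -0.68 ± 0.16, adjusted p = 0.017), a call lost without B6 library 4 or 12 (adjusted p = 0.0873 and 0.0501). Ctbp2 fell from 112 ± 6.81 to 65.3 ± 10.1 (-0.78 ± 0.22, adjusted p = 0.044), a call lost without any single library (adjusted p of 0.0651 to 0.165). Ncor1 (-0.04 ± 0.11), Kdm5a (0.05 ± 0.10) and Ctbp1 (-0.19 ± 0.16) were not called.

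Of 16 further targets tested, 3 rose and 2 fell, and the 2 called repressor genes of the HES and HEY families went in opposite directions. Hey1 stood at 29, 44 and 25 normalized counts in NOD and at 219, 190 and 165 in B6, a log2 difference of -2.54 ± 0.26 (limma adjusted p = 7.3e-05). The strains did not overlap. Hey1 is also known from vessels, and of the vessel genes listed, Kdr stood at 0 in every library, Cdh5 at 0 to 6, and Pecam1 at 2379 to 2697 in NOD and 1825 to 2188 in B6. Their part in the Hey1 value was not tested. Hes5 stood at 14, 33 and 12 in NOD and at 2, 1 and 0 in B6 (3.37 ± 0.65, adjusted p = 0.0061). It passed the filter only through the NOD libraries, which by itself requires a difference, and with no filter on low values its limma adjusted p was 0.0088. With 59 normalized counts against 3 in all, the ratio was 19.7, with an exact interval for counting error alone of 6.41 to 98.1 when normalized counts are taken as reads. Heyl, Hey2 and Hes7 did not pass the filter.

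The other called targets were genes with many regulators besides Notch. Ccnd3, a D-type cyclin needed by Notch-driven thymocytes, rose from 666 ± 58.1 to 1086 ± 86.0 normalized counts (SD, n = 3 each; log2 difference 0.70 ± 0.12, limma adjusted p = 0.0027). Trib2, a pseudokinase, stood at 4731, 6735 and 7387 in NOD and 3929, 3642 and 4521 in B6 (0.62 ± 0.16, adjusted p = 0.029). Il7r, the IL-7 receptor chain, fell from 4398 ± 369 to 3234 ± 280 (-0.44 ± 0.11, adjusted p = 0.024). The Trib2 call was lost without NOD library 10 or 18 or B6 library 4 or 12 (adjusted p of 0.0609 to 0.139), and the Il7r call without NOD library 18 or B6 library 4 or 20 (0.0697 to 0.111). Tcf7 (0.32 ± 0.13) and Il2ra (-0.13 ± 0.17) were not called, and Ptcra, the pre-TCR alpha chain, was at 0 or 1.

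**Figure D4:**
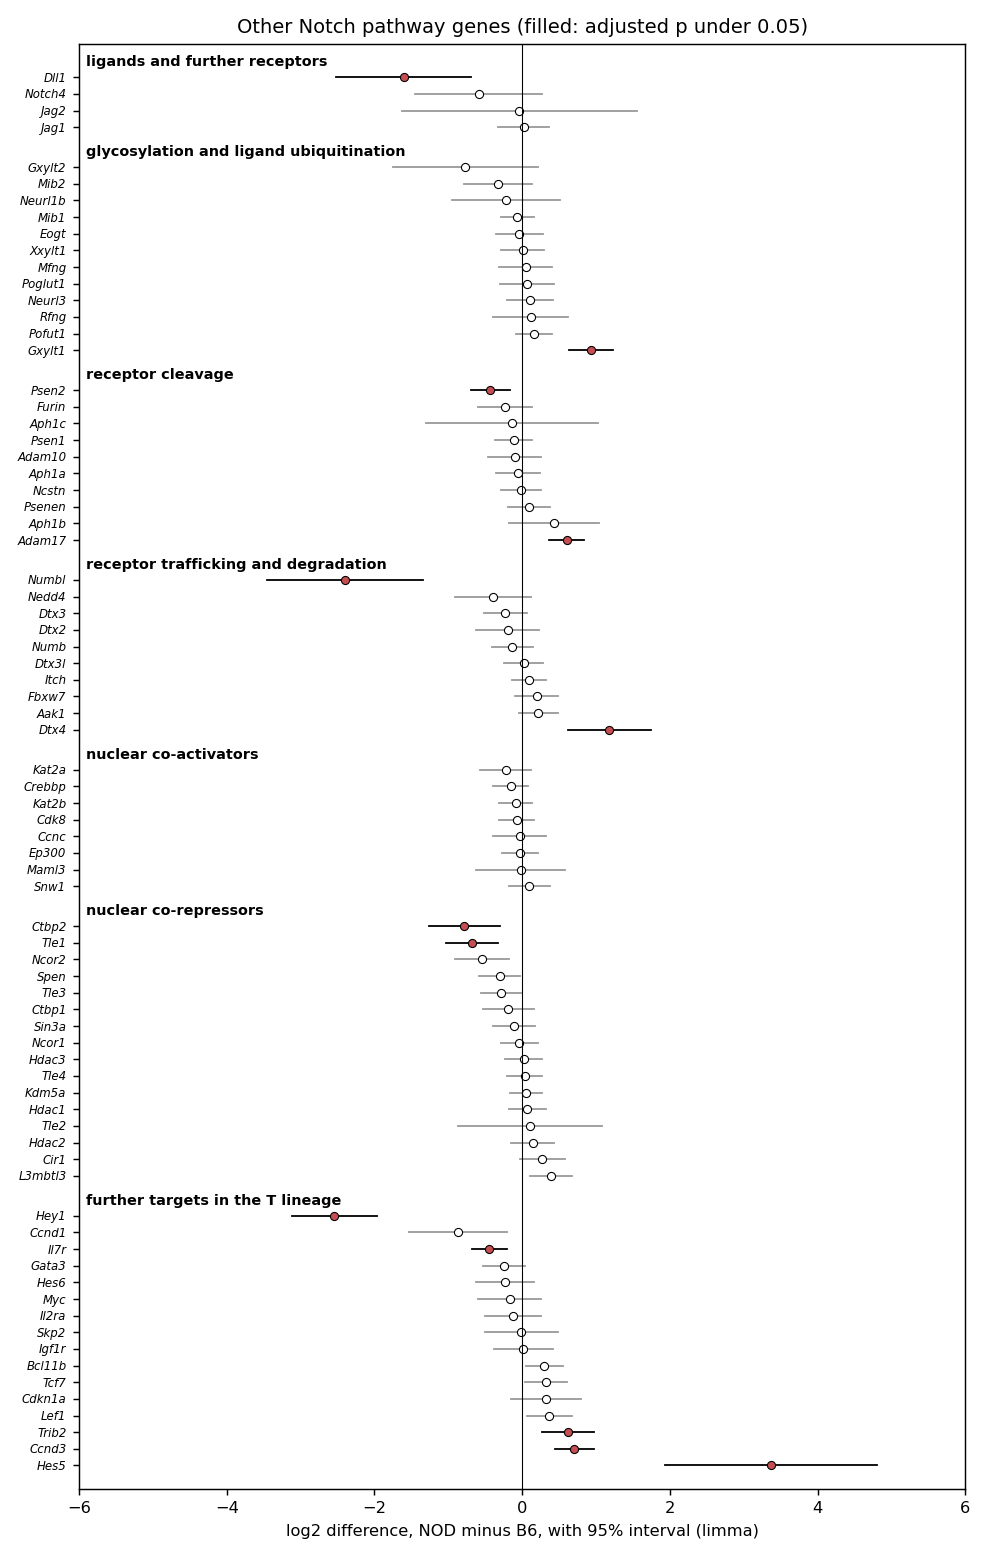
Log2 difference (NOD minus B6) of the 76 tested pathway genes by list, with limma's unadjusted 95% interval. Filled points passed an adjusted p of 0.05, and most open points lie close to 0.

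**Figure D5:**
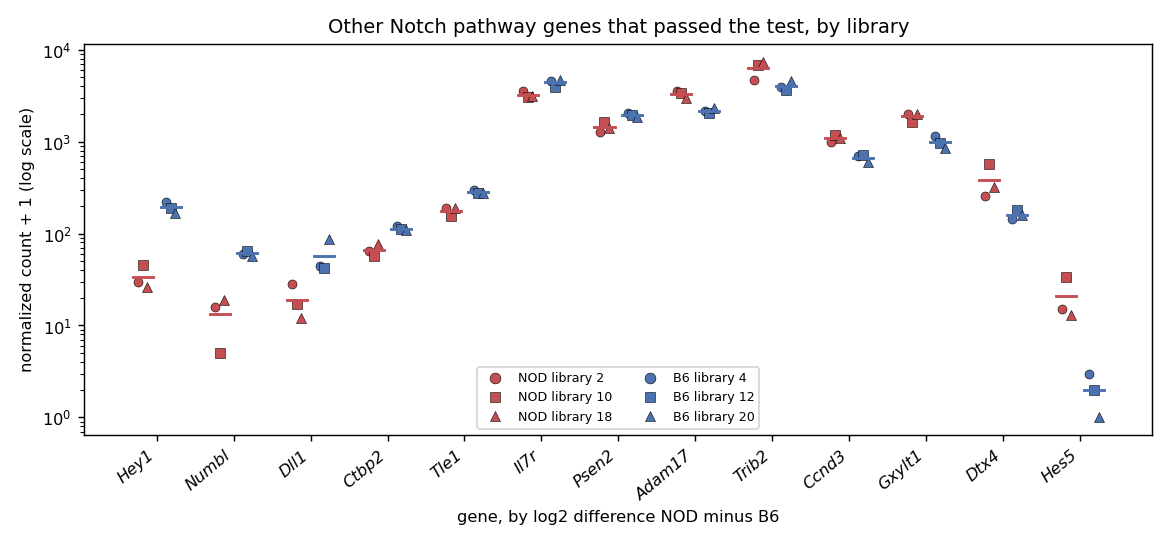
Normalized count + 1 (log axis) of the 13 called pathway genes in each library, NOD in red and B6 in blue, bars at strain means. Marker shapes only tell libraries apart. The strains do not overlap for any of the 13, and Hey1 (25 to 44 against 165 to 219) and Hes5 (12 to 33 against 0 to 2) are at opposite ends.

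RBPJ binds the core sequence TGGGAA, and windows of 300 bases around RefSeq start sites (250 before to 50 after, GRCm38.p6) were searched for it on both strands. It was in 25.6% of all 32851 windows, and in 4 of 11 windows of the 9 members that had one: both of Rbpj, 1 of Lfng and 1 of 2 of Maml2. The Rbpj windows overlap and share 1 match, which lies 65 bases before one start site and 205 before the other. Notch1, Notch2, Notch3, Maml1, Dtx1 and Nrarp held no match in their windows, and Hes1 and Hey1 were not matched to the table. The longer form GTGGGAA, which contains the core, was in 6.38% of all windows. Among the members only Lfng held it, 108 bases before the start site on the gene's strand. The Hes5 window held it on both strands, 226 and 82 bases before the start. The sequence upstream of the start site is shown for Lfng, the member with the highest value per kb of merged exon, and for Hes5, the target that rose most. Both run 5′ to 3′ on the gene's strand, from RefSeq (GRCm38.p6), with TGGGAA or its reverse complement in capitals. Lfng is chr5:140607091-140607319 and Hes5 is chr4:154960673-154960769, both plus strand, cut where an annotated exon begins, so that 1 of the Hes5 matches falls outside. A match describes the letters alone, and binding was not measured.
Lfng: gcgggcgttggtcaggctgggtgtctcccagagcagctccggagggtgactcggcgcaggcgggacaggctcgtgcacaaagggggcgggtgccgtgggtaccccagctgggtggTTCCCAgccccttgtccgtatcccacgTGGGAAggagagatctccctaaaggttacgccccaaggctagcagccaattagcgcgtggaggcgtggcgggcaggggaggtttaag
Hes5: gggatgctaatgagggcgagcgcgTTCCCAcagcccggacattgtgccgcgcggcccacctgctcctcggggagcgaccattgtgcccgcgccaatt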

How the data were processed

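RNA of sorted thymic Treg was measured in 3 NOD and 3 B6 libraries. The deposited table holds, per the file headers, scores: the authors' DESeq2 counts after size-factor scaling, rounded to whole numbers. It also holds the authors' log2 fold change, p-value and adjusted p-value, and their mean and statistic as further scores. That mean differs from the average over the 6 columns (2232 against 3887 for Rbpj). Trimmomatic, STAR, DESeq2 and mm10 are named in the submitters' processing notes; counter, annotation and strand setting: not given in the sources used here.

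Columns were matched to strain by name. Their numbers are not the labels' replicate numbers, and 0 sample columns went unused. The gaps and doublings left by rounding gave an estimate of depth, a method tested on simulated libraries. The 16442 genes that reached 10 normalized counts in 3 or more libraries entered a limma fit (limma 3.58.1, R 4.3.3) of log2(value + 1) on strain alone, with a mean-variance trend. The two-sided p-values were adjusted over these genes (Benjamini-Hochberg) and genes called at an adjusted p under 0.05. Differences are on this log2 scale, which understates changes of low genes. The fit was tested on simulated data. No pair of replicates agreed within sampling noise (chi-square per gene 14.9 to 112). The highest values, 93.5 and 112, were those of NOD library 10 against the other NOD libraries. NOD libraries 2 and 18 gave 14.9, and the B6 pairs gave 21.5 to 50.0.

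Members and gene lists were chosen with earlier results of these data known. Named pathway genes are the called ones and the most abundant of each list; others, Rbpj-ps3, Cntnap2, the overlapping genes and single markers were chosen after their values were seen. The genes closest to Notch1 and Notch3 had the smallest root mean square difference. Alternatives were other pseudocounts (0.5 and 5), filters (none, and 50), scalings, no trend, and each library left out. Positions and exon lengths are from GENCODE M21 (GRCm38, the assembly of mm10), promoters from RefSeq.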

Additional observations from a re-analysis of the deposited data

How the results depend on the processing

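Each result was refitted under 13 other settings. Of the 8 genes described that could be tested, each moved by less than the spread between replicates under each alternative that gave a value (12 for Notch3, which the filter at 50 normalized counts removes, and 13 for the others). Leaving out 1 library of a strain cannot move a difference that far, and the filters and the trend setting leave it unchanged. Only the pseudocounts and scalings could thus have exceeded that spread. The calls of Notch3 and Dtx1 were lost under several alternatives, as given above. Rbpj ran from -1.75 to -1.59 on the log2 scale with a library left out, Notch3 from -2.83 to -1.99, Dtx1 from 0.91 to 1.61, and Notch1 from -0.03 to 0.32. With its pseudogene rows added, an alternative chosen after seeing the data, Rbpj moved to -1.40 because of the added reads. Of the 13 called pathway genes, 6 kept their call under each alternative that gave a value (Adam17, Ccnd3, Gxylt1, Hey1, Numbl and Hes5, the last with the limit on its filter given above), and 7 lost it under at least 1, with the cause not tested. With a library left out, the pathway held 4 to 7 genes that rose and 2 to 5 that fell, and all tested genes held 490 to 781 called higher and 569 to 1011 called lower; the fewest came without NOD library 18 (higher) and B6 library 4 (lower). Neither rescaling moved the median of all genes by more than 0.1, so no direction is given relative to a shift. No paired analysis was possible because the columns carry none of the labels' replicate numbers. At this depth, Hes1 and Nrarp could not be compared between strains.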

Other observations

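Genes around Rbpj, Dtx1 and Notch3 were examined after the values were seen. Of all 16442 genes tested, limma called 9.89%, and 3340 had an unadjusted p under 0.05. Nothing is read from the counts below, given these shares. Of the 4 tested genes within 500 kb of Rbpj, limma called 0, with 2 higher in NOD at an unadjusted p under 0.05. Their log2 differences were -0.09 ± 0.17 (SE) for Smim20, 0.70 ± 0.28 for Tbc1d19, 0.28 ± 0.12 for Stim2 and 0.58 ± 0.38 for Gm15820, against -1.66 for Rbpj. Within 500 kb of Dtx1, limma called 0 of 16 tested genes, with 1 higher and 1 lower at an unadjusted p under 0.05. Within 500 kb of Notch3, 1 of 15 was called. That gene was the cytochrome P450 gene Cyp4f16, whose mean was 364 normalized counts in NOD against 8 in B6 (log2 difference 5.39 ± 0.29 SE, limma adjusted p = 4.5e-07).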
